A study of Mus musculus with 36 samples.

Results

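The IL-1 family and inflammasome loci examined here are Il1a, Il1b, Il1rn, Il18, Nlrp3, Casp1, Casp4 and Gsdmd. Their members are the accessible regions (ATAC-seq peaks) of the deposited peak table whose mm10 interval overlaps the gene body or the 10 kb on either side of it. That rule gave 75 of the 119751 peaks. Il1a had 15, Il1b 11, Il1rn 14, Il18 10, Nlrp3 14, Casp1 5, Casp4 8 and Gsdmd 3. All 5 Casp1 peaks also lay in the Casp4 window, because the 2 genes are neighbours on chromosome 9, and they are counted once in totals. A low-count filter passed 74 of the 75. The remaining peak, 200 bp at chr11:59537439-59537638 in the Nlrp3 window, is not tested.

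ATAC-seq measured chromatin accessibility in bone marrow-derived dendritic cells of female C57BL/6J mice aged 6 to 8 weeks, grown with GM-CSF at 15 ng/mL and collected at 6 h. Each library came from 50000 cells, and each of 18 groups had 2 libraries, 36 in all. The control group (Ctrl) received no ligand. The 6 ligands given alone were depleted zymosan (Z), HMW (H), 3',3'-cGAMP (cG), PAM (P), SeV (S) and LPS (L). The pairs were PL, PH, LH, PS, PcG, ScG, ZS and ZcG, and the triplets PLH, PScG and ZScG, each named by its ligands. LPS is the Gram-negative cell wall lipid sensed by a Toll-like receptor, 3',3'-cGAMP is a cyclic dinucleotide that activates STING, and zymosan is a yeast cell wall preparation. All groups, the control included, share the GM-CSF culture, which is known to hold macrophage-like as well as dendritic cells. The labels do not tie the 2 libraries of a group to separate animals or cultures, so p-values measure the spread between these libraries, which may be technical. In such bulk samples, fewer cells with an open region and less opening per cell cannot be told apart.

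IL-1α and IL-1β, encoded by Il1a and Il1b, are inflammatory cytokines that act through the same receptor. Il1rn encodes the receptor antagonist, which occupies that receptor without signalling. In the classical order of events, Toll-like receptor signals first induce Il1b and Nlrp3, and a later signal assembles the NLRP3 inflammasome, in which caspase-1 cuts pro-IL-1β and pro-IL-18 and opens the pore-forming protein gasdermin D. Caspase-11, encoded in the mouse by Casp4, senses intracellular LPS and also cuts gasdermin D. Accessibility shows how open a DNA region is, not the amount of RNA or protein.

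The sequences just upstream of the annotated starts are shown because the start peaks of these genes are among the regions compared. They come from RefSeq, build GRCm38.p6, run 5′ to 3′ on the gene's strand, and have the searched motifs in capitals. For Il1a, only the 30 bases from 32 to 3 bases before the start are given, at chr2:129309975-129310004 on the minus strand. That start lies inside the gene body of the gene table, which holds 214 bases of the 250-base window, these 30 included. Distances of peaks from a gene start use the gene table instead. The other windows are the 250 bases before the start. They lie at chr2:129371140-129371389 (minus) for Il1b, chr2:24336610-24336859 (plus) for the first Il1rn start, chr2:24345041-24345290 (plus) for an internal Il1rn start, chr11:59541319-59541568 (plus) for Nlrp3 and chr9:5298267-5298516 (plus) for Casp1.
Il1a: TATAAAaaggcagagaagccTGACTCAgac
Il1b: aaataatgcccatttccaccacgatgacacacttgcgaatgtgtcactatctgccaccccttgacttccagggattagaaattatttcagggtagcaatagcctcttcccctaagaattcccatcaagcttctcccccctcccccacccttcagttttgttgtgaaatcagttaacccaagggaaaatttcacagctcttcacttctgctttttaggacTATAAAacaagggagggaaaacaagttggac
Il1rn, first start: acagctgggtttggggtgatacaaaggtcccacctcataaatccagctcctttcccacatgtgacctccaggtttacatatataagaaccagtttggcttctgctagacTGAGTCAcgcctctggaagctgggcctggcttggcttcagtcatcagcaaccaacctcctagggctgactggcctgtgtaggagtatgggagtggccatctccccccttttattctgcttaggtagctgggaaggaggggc
Il1rn, internal start: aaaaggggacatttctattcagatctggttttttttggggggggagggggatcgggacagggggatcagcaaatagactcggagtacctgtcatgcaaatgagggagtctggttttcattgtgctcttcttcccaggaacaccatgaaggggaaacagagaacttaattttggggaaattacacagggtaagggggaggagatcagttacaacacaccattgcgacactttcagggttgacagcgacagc
Nlrp3: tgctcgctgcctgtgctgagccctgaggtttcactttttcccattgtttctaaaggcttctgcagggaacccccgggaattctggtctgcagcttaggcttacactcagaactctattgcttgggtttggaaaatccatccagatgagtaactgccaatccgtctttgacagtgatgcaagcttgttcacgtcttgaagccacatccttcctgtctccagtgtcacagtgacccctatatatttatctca
Casp1: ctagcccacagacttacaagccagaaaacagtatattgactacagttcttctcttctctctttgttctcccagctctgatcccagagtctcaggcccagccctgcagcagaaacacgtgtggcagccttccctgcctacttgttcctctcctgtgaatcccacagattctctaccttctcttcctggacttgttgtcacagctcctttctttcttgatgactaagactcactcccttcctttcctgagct
The motifs were searched on both strands, and no 2 of the matches shown overlap. The capitals in Il1a are TATAAA, 32 to 27 bases before the start, and TGACTCA, 12 to 6 bases before it. Il1b has TATAAA 31 to 26 bases before its start, and the first Il1rn window has TGAGTCA at 141 to 135. Of 32851 RefSeq windows of this length, 12.4% held TATAAA and 6.75% held the AP-1 letters TGANTCA. The kB letters, GGGA and TTCC with any 2 bases between them, were in 1.21% of the windows, the ISRE letters, GAAA, any 2 bases and GAAA again, in 2.98%, the PU.1 letters GAGGAAGT in 2.44% and the C/EBP letters TTGCNNAA in 9.56%. None of these last 4 was matched in a window of these loci. A match is a description of letters, and no match says only that the letters are not in that window. All 250 bases of each window printed lay within a member peak.

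The libraries held 19097027 to 39977088 counts in peaks, of which 8181254 to 21985891 lay outside the mitochondrial genome. The mitochondrial share was 61.0% ± 1.23 (SD, n = 2) in the control and between 58.3% and 63.0% on average in Z, ScG, ZcG and ZScG, against 44.4% to 54.5% in the other 13 stimulated groups. For those 13, whatever set the mitochondrial share cannot be told apart from the ligands in comparisons with the control. Start peaks were found for 9 of 10 dendritic and myeloid markers (summed 82.5 to 110.0 CPM per kb over the libraries; Zbtb46 had none) and for 4 of 4 macrophage markers (32.6 to 58.5). T cell, B cell, erythroid and stromal markers had 0 start peaks. Of the neutrophil markers, 1 of 4 had a start peak (S100a8; 18.3 CPM per kb on average in the control and 7.02 to 18.3 in the stimulated groups), and of the NK cell markers 1 of 3 (Klrb1c; 23.9 against 14.6 to 26.8). The part of these in the results was not tested.

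The first question was where these loci opened or closed after stimulation. Levels are in CPM, TMM-scaled counts relative to all counts outside the mitochondrial genome, on the usual CPM scale, and changes are log2 ratios with their standard error (SE) from edgeR's quasi-likelihood test. A peak is called higher or lower at an adjusted p under 0.05, with Benjamini-Hochberg adjustment over the 119464 peaks tested. Of the 74 member peaks, 50 rose in at least 1 stimulated group (35.0% of all tested peaks did) and 15 fell in at least 1 (34.1%). Both directions were called at 2 (2.46%), and 11 had no call (33.4%). Without control replicates 1 and 2 the peaks with no call numbered 26 and 23. In all 17 stimulations 6 peaks rose (1.03%), namely 2 of Il1a and 4 of Il1rn, and 0 fell in all 17 (0.46%). The 6 were 5 and 3 without control replicates 1 and 2. A test of any difference among the 18 groups called 64 of the 74 (86.5%), and 62.5% of all peaks tested.

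With PAM, 29 member peaks were higher and 4 lower than in the control, where 11.1% and 9.45% of all tested peaks were higher and lower. With LPS, 27 were higher (11.2% of all peaks) and 2 lower (11.1%). SeV gave 23 higher (14.1%) and 5 lower (13.8%), and 3',3'-cGAMP 20 higher (11.6%) and 3 lower (11.6%). HMW gave 12 higher (5.21%) and 2 lower (5.46%), and depleted zymosan 10 higher (4.16%) and 1 lower (1.75%). So with each single ligand a larger share of member peaks than of all peaks was higher. A smaller share was lower, but for depleted zymosan that share rested on 1 peak and was near that of all peaks. Among the combinations, the counts of higher member peaks ran from 16 in ZcG to 42 in PScG. The counts were 34 in PL (13.8% of all peaks), 33 in PH (13.6%), 21 in LH (11.3%), 32 in PS (17.3%) and 37 in PcG (16.8%). They were 24 in ScG (14.4%), 26 in ZS (14.4%), 16 in ZcG (11.4%), 34 in PLH (14.9%), 42 in PScG (19.0%) and 29 in ZScG (16.2%). The counts of lower member peaks were 3 in PL (13.5% of all peaks), 5 in PH (12.8%), 2 in LH (10.5%), 4 in PS (16.2%) and 4 in PcG (16.2%). They were 7 in ScG (13.3%), 6 in ZS (14.0%), 7 in ZcG (10.2%), 3 in PLH (14.7%), 6 in PScG (18.1%) and 9 in ZScG (16.1%).
Leaving out 1 library moved some counts of higher member peaks by over 1.5 times. The LPS count was 16 without control replicate 1, and the HMW count 7 without control replicate 2 and 6 without HMW replicate 1. The depleted zymosan count was 6 without control replicate 2 or its own replicate 2. The ZS count was 16 without control replicate 1 and 14 without ZS replicate 2, and the ZcG count 9 without ZcG replicate 1. Of the counts of lower peaks, PAM had 1 and 2 without control replicates 1 and 2 and 2 without PAM replicate 2, SeV had 3 without control replicate 1 or SeV replicate 2, and 3',3'-cGAMP had 1 without control replicate 1. LPS had 1 without control replicate 1 or either LPS library, HMW 1 without control replicate 1 or HMW replicate 2, and depleted zymosan 0 without either control library or its own replicate 1. Without control replicate 1, PH had 2 lower, LH 1, PS 2 and ZcG 3. PH had 3 and 2 without its replicates 1 and 2, ZcG 3 and 4 without its own, LH 1, PScG 3 and ZScG 5 without their replicate 1.

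**Figure D1:**
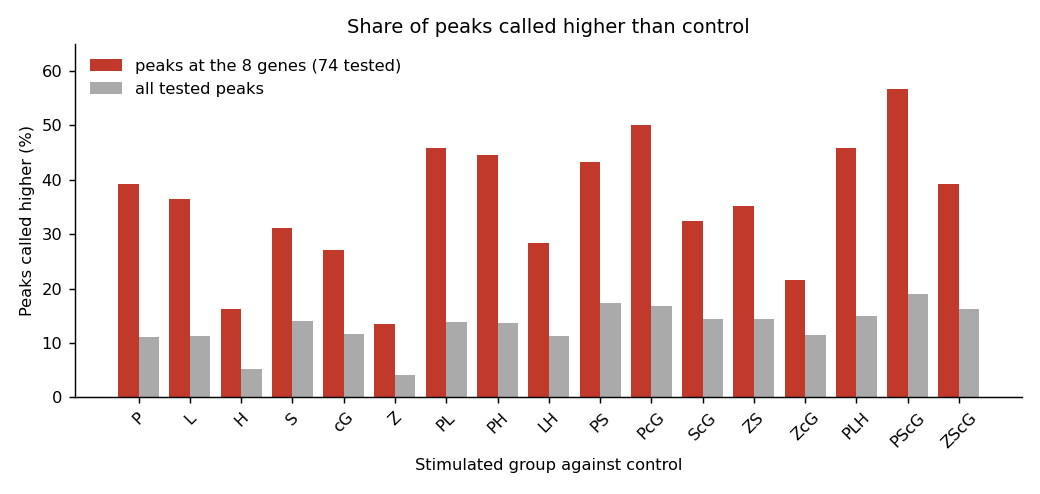
Percent of peaks called higher than in the control (y axis) for each of the 17 stimulated groups (x axis), for the 74 member peaks (red) and all 119464 tested peaks (grey). The member share is above the background in every group, from 10 of 74 peaks with depleted zymosan to 42 of 74 with PScG.

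The calls were spread unevenly over the genes. In any 1 stimulation, 4.16% to 19.0% of all tested peaks were higher and 1.75% to 18.1% lower. Counting each peak in each of the 17 stimulations, Il1rn gave 160 higher and 0 lower calls over 14 peaks, and Il1a gave 137 higher and 4 lower over 15. Il1b gave 48 higher and 10 lower over 11, Nlrp3 59 and 5 over 13, and Il18 22 and 5 over 10. Casp1 gave 18 higher and 16 lower over 5 peaks, Casp4 22 and 31 over 8, those 5 included (4 and 15 over the other 3), and Gsdmd 1 and 18 over 3. When libraries were scaled by total counts, the higher and lower calls were 79 and 5 for Il1b, 47 and 3 for Il18, 90 and 3 for Nlrp3, 28 and 10 for Casp1, 35 and 18 for Casp4 and 4 and 9 for Gsdmd, and Il1a had 2 lower. Without control replicate 1 the higher calls numbered 22 for Il1b, 12 for Il18 and the lower calls 1 for Il1a, 5 for Il1b, 3 for Il18, 2 for Nlrp3 and 19 for Casp4. Without control replicate 2 the higher calls numbered 14 for Il18, 29 for Nlrp3, 7 for Casp1, 8 for Casp4 and 0 for Gsdmd, and the lower calls 3 for Nlrp3. Il1rn and Il1a, with 123 and 107 higher calls without the first and 142 and 119 without the second, stayed within 1.5 times. By position, peaks shared by Casp1 and Casp4 were classed by Casp1, so the Casp4 start peak and another Casp4 body peak count as downstream. In gene bodies, 28 of 39 peaks were higher in at least 1 group and 6 lower in at least 1. The counts were 15 and 4 of 20 upstream of the start, 7 and 3 of 13 downstream of the end, and 0 and 2 of the 2 Gsdmd peaks outside its body. Of all tested peaks, whatever their position, 35.0% were higher in at least 1 group and 34.1% lower.

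**Figure D2:**
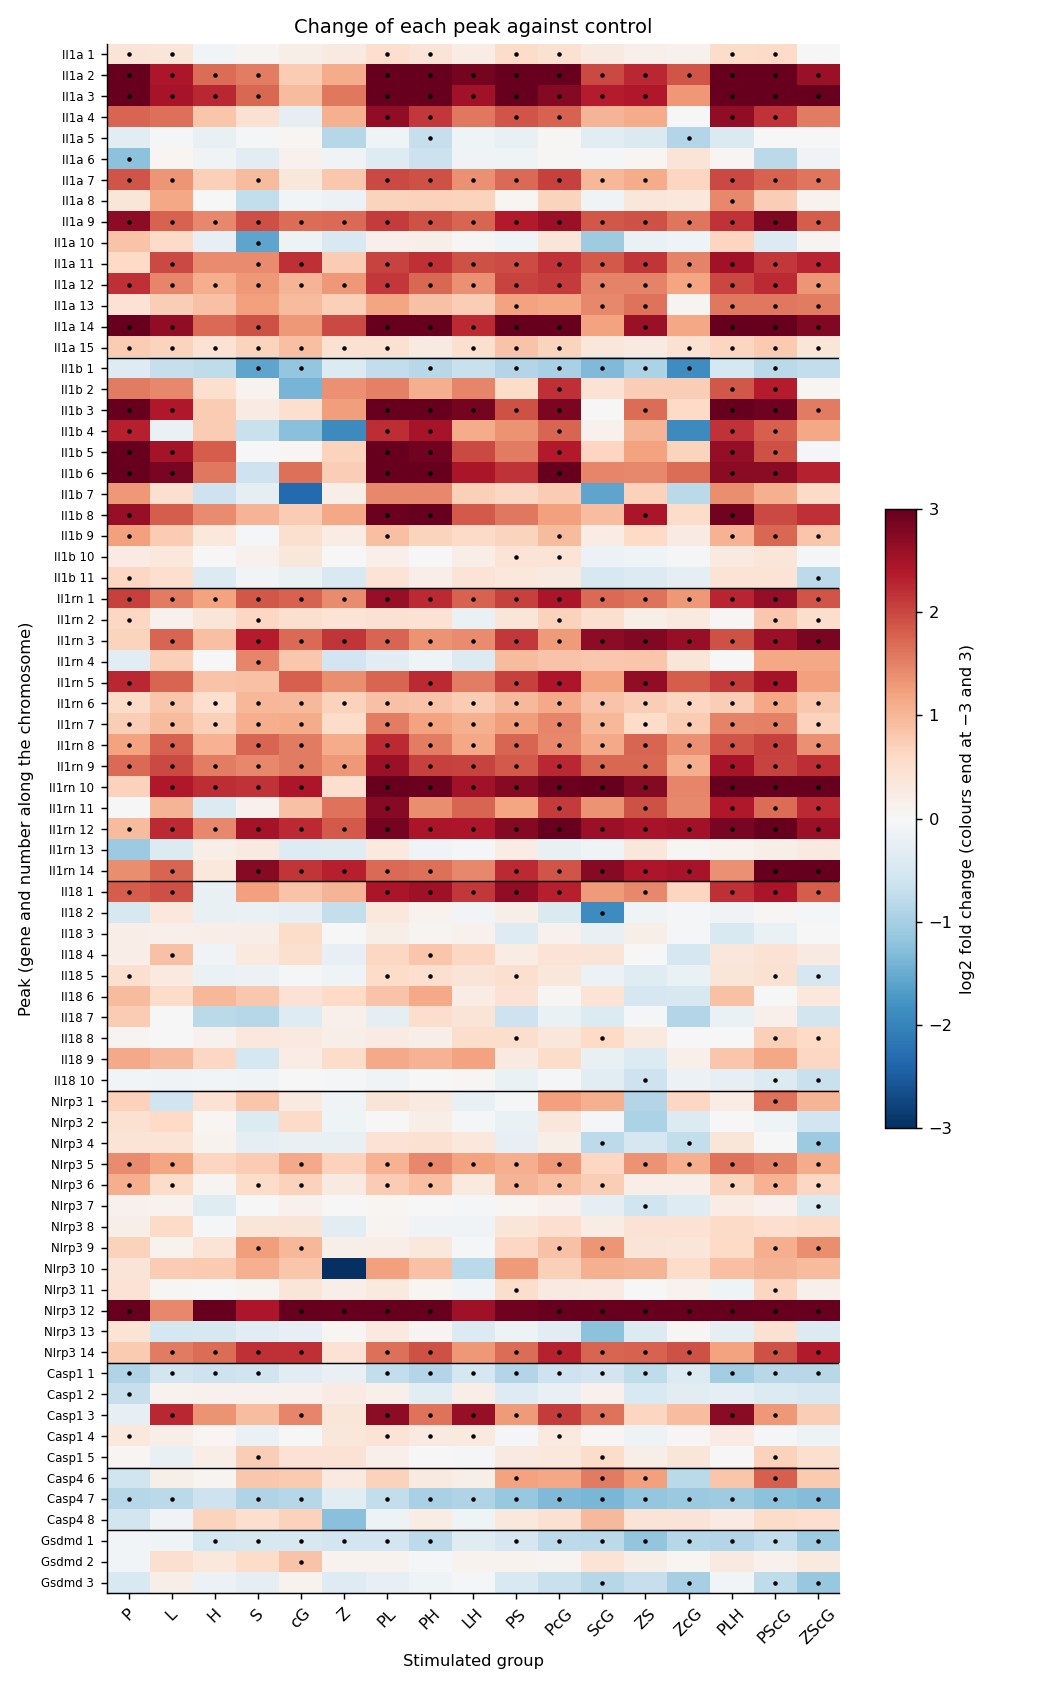
Log2 change against the control (colour, ending at 3 in either direction) for the 74 member peaks in rows, grouped by gene, and the 17 stimulations in columns. A black dot marks a called change, and the peaks shared by Casp1 and Casp4 are drawn once under Casp1. Il1rn and Il1a hold most of the dots with a higher value, and 1 row each in Casp1, Casp4 and Gsdmd holds most of the dots with a lower value.

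The second question was how the ligands differed from each other, tested directly without the control libraries. Against SeV, 21 member peaks were higher with PAM (12.9% of all tested peaks) and 11 lower (11.6%). The higher ones included 7 of 15 Il1a peaks and 7 of 11 Il1b peaks, with 0 lower in either gene, and the lower ones included 5 of 14 Il1rn peaks, with 0 higher. Against 3',3'-cGAMP, 22 were higher with PAM (12.7%) and 13 lower (11.1%), among them 9 of 11 Il1b peaks higher and 4 of 14 Il1rn peaks lower. Against LPS, 6 were higher with PAM (5.87%) and 6 lower (5.19%). Without PAM replicate 2, the counts against SeV were 13 higher and 5 lower, with 4 Il1a peaks higher, and 1 lower, those against 3',3'-cGAMP 14 and 7, with 2 Il1rn peaks lower, and 3 were higher than with LPS. Without replicate 1 of 3',3'-cGAMP, 14 peaks were higher with PAM and 2 Il1rn peaks lower, without its replicate 2 the counts were 13 and 7, with 1 Il1rn peak lower, and without LPS replicate 2, 2 were higher than with LPS. SeV and 3',3'-cGAMP differed at 0 of the 74 by edgeR's quasi-likelihood test (0.949% of all peaks), with 2 higher and 4 lower at an unadjusted p under 0.05 and 0 by DESeq2. That count does not show that these ligands act alike at these loci.

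**Figure D3:**
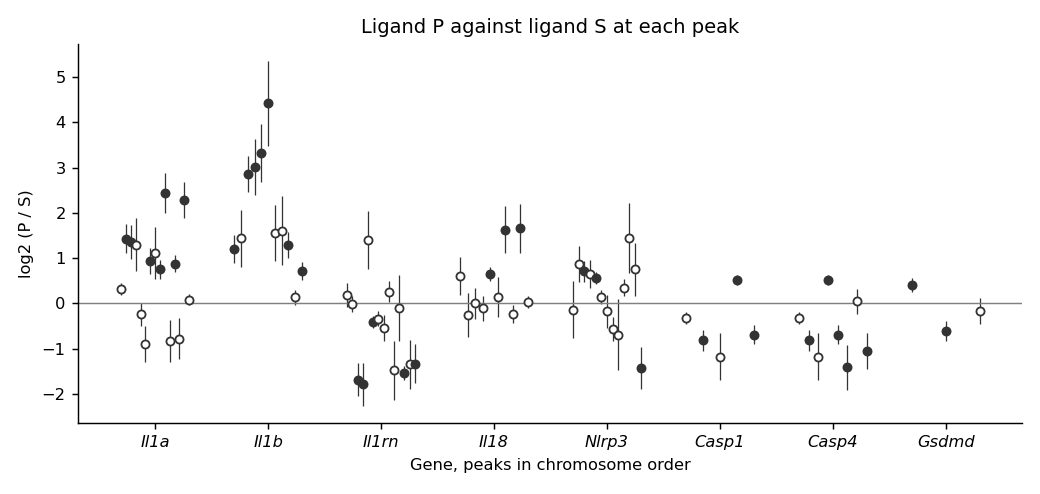
Log2 ratio of PAM to SeV for each tested peak, grouped by gene. Error bars are standard errors and filled points are called. The called points of Il1a and Il1b all have values above 0 and those of Il1rn all below 0. The 5 Casp1 peaks appear again under Casp4.

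Il1a, the first of the cytokine genes, had peaks called higher past its 3′ end, inside the gene, at its start and upstream of it. Inside the gene, peaks centred 9.2 and 8.2 kb from the start rose in 14 and 6 of 17 stimulations (12 and 2 without control replicate 2). Those at 3.9 and 1.0 kb rose in 0 and fell in 2 and 1 (0 each without control replicate 1). Its peak with the lowest p among groups lies past the 3′ end, 11.3 kb from the start, at chr2:129298228-129299496, and overlaps the annotated gene Gm14023. The control libraries read 0.656 and 0.579 CPM there. The single ligands gave 3.13 and 6.64 with PAM, 3.74 and 3.02 with LPS, 2.54 and 1.29 with HMW, 2.22 and 1.41 with SeV, 1.11 and 1.0 with 3',3'-cGAMP, and 1.44 and 1.26 with depleted zymosan. Every single-ligand library was therefore above both control libraries, and the spread between the 2 PAM libraries was wide. Among the pairs, the libraries read 6.32 and 7.84 in PL, 6.18 and 9.49 in PH, 6.84 and 5.17 in PS, 5.56 and 6.44 in PcG, 3.84 and 5.39 in LH, 2.6 and 2.29 in ScG, 2.47 and 3.5 in ZS, and 1.21 and 3.34 in ZcG. The triplets read 6.46 and 5.98 in PLH, 9.16 and 7.54 in PScG, and 3.46 and 4.14 in ZScG.
Over the 14 libraries with PAM the lowest, median and highest were 3.13, 6.45 and 9.49 CPM, and over the 20 stimulated libraries without it 1.0, 2.51 and 5.39. The peak rose in 15 of 17 stimulations, 7.87-fold with PAM (log2 2.98, SE 0.435, adjusted p 6.9e-09) and by log2 2.43 (SE 0.45, adjusted p 5.83e-06) with LPS. The largest change was in PScG (3.74, SE 0.414, adjusted p 1.2e-14). With 3',3'-cGAMP (0.77, adjusted p 0.33) and depleted zymosan (1.11, adjusted p 0.264) it did not pass. The HMW call (1.67, adjusted p 0.014) and the SeV call (1.54, adjusted p 0.0103) were lost without either control library: without replicate 1, HMW had adjusted p 0.0861 and SeV 0.0556, and without replicate 2, 0.113 and 0.0896. They were also lost without replicate 1 of HMW (1.06) or of SeV (1.19), and the ZcG call without its replicate 2 (0.96, adjusted p 0.392). In the order of group means only the lowest steps were free of overlap, from depleted zymosan (1.35 CPM) to 3',3'-cGAMP (1.06) and from there to the control (0.617).

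Adding PAM raised the Il1a 3′ peak by 1.99 (SE 0.314, adjusted p 2.53e-07) over HMW, 2.49 (adjusted p 1.07e-08) over 3',3'-cGAMP and 1.71 (adjusted p 3.57e-05) over SeV. The rise was 1.06 (adjusted p 0.0416) over LPS and 1.76 (adjusted p 4.36e-05) over ScG, a group that also differs from PScG in mitochondrial share. PAM was also added to LH, where the means were 6.22 CPM ± 0.34 (SD, n = 2) in PLH and 4.61 ± 1.1 in LH. The call over LPS was lost without any 1 of the 4 libraries (0.91 to 1.22). Directly, PAM was above SeV by 1.43, a call that was lost without PAM replicate 2 (0.78, adjusted p 0.193). The Il1a start peak, chr2:129309722-129310415, which holds the printed TATAAA and TGACTCA, rose in 13 of 17 stimulations (8 without control replicate 1), by 1.89 (SE 0.346, adjusted p 4.68e-06) with PAM and by 1.33 with LPS. The LPS call was lost without control replicate 1 (1.12, adjusted p 0.0681) or LPS replicate 2 (0.97). The peak of Il1a with the highest mean level, chr2:129319691-129320670, rose in 14 of 17 (8 without control replicate 1), with changes of 0.26 to 0.91.

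Another upstream Il1a peak, 8.3 kb before the start at chr2:129318198-129318693, was chosen after its values were seen, because its libraries split by PAM. Each of the 14 libraries with PAM (2.63 to 4.98 CPM, median 4.2) lay above each of the 20 stimulated libraries without it (0.223 to 2.57, median 0.959). The control libraries read 0.219 and 0.289, and PAM alone 4.65 and 4.98, a change of 4.18 (SE 0.557, adjusted p 1.95e-10). PAM was above SeV by 2.28 (SE 0.403, adjusted p 1.47e-06), above 3',3'-cGAMP by 2.89 (adjusted p 2.44e-08) and above LPS by 1.54 (adjusted p 0.0017). Closer to the start, 1.6 kb upstream at chr2:129311431-129312103, a peak rose in all 17 stimulations by 1.44 to 2.79, from 1.31 and 2.8 CPM in the control libraries to 10.5 and 16.5 with PAM. The HMW call was lost without control replicate 1 (1.03, adjusted p 0.0702).

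Like those of Il18, the peaks of Il1b were called higher with fewer single ligands than those of Il1a and Il1rn. Of the Il1b peaks, 7 of 11 were higher with PAM and 3 of 11 with LPS. With HMW, SeV, 3',3'-cGAMP and depleted zymosan, 0 of 11 were higher by edgeR's quasi-likelihood test. At an unadjusted p under 0.05, 1 was higher with HMW, 0 with SeV, 1 with 3',3'-cGAMP and 1 with depleted zymosan, and DESeq2 called 0 higher with each. Of the pairs, PcG had 7, PL 6, PH 5, PS 2, ZS 2, LH 1, and ScG and ZcG 0. The triplets had 7 in PLH, 6 in PScG and 2 in ZScG. Most of these counts moved by over 1.5 times without 1 library. Without PAM replicate 2 the PAM count was 4, and the LPS count was 1 without control replicate 1 or LPS replicate 1. A count of 1 appeared with HMW without control replicate 2 and with 3',3'-cGAMP without its replicate 1. Without control replicate 1, PL had 2, PH 3, PS 1, PcG 3, ZS 1, PLH 2, PScG 3 and ZScG 0. Without control replicate 2, LH had 2, PcG 4, ZS 1, PLH 4, PScG 3 and ZScG 0. Leaving out a library of the pair or triplet gave 2 in LH without replicate 2, 1 in PS without replicate 2, 4 in PcG without replicate 2, 0 in ZS without replicate 2 and 3 in PScG without replicate 2. ZScG had 0 without its replicate 1 and 1 without its replicate 2.
The peak with the lowest p among groups lies at the 3′ end of Il1b, chr2:129363814-129365242. It read 0.656 and 0.579 CPM in the control libraries, 5.11 and 5.56 with PAM, 4.24 and 2.48 with LPS, 1.08 and 1.03 with HMW, 0.72 and 0.738 with SeV, 1.43 and 0.358 with 3',3'-cGAMP, and 2.1 and 0.944 with depleted zymosan. PAM libraries were thus above all other single-ligand libraries, and 1 of the 3',3'-cGAMP libraries was below the control. The pairs read 8.04 and 6.42 in PL, 4.54 and 6.01 in PH, 4.89 and 4.12 in LH, 2.57 and 2.1 in PS, 4.89 and 3.95 in PcG, 0.372 and 0.874 in ScG, 1.94 and 2.03 in ZS, and 1.21 and 0.668 in ZcG. The triplets read 4.96 and 5.61 in PLH, 4.58 and 4.84 in PScG, and 2.57 and 0.965 in ZScG.
Groups with LPS or PAM were the highest. In the order of means PL (7.23 CPM) stood above P (5.34) with no overlap, the next groups overlapped their neighbours down to PS (2.34), and PS stood above ZS (1.98). The rise was 3.1 (SE 0.452, adjusted p 6.4e-09) with PAM, 2.41 (SE 0.47, adjusted p 1.75e-05) with LPS and 3.54 in PL. It was 0.77 with HMW, 0.24 with SeV, 0.5 with 3',3'-cGAMP, 1.25 (adjusted p 0.195) with depleted zymosan and -0.02 in ScG, none of which passed. The ZS call was lost without control replicate 2 (1.58, adjusted p 0.0725) and the ZScG call without ZScG replicate 1 (0.64, adjusted p 0.593) or either control library.

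The ligands differed directly at the Il1b 3′ peak. PAM was above SeV by 2.86 (SE 0.397, adjusted p 8.1e-10), above 3',3'-cGAMP by 2.6 (adjusted p 2.67e-08) and above HMW by 2.32 (adjusted p 7.21e-07), and LPS was above SeV by 2.17 (adjusted p 2.41e-05). LPS was also above 3',3'-cGAMP (1.91, adjusted p 0.000419) and HMW (1.64, adjusted p 0.00404), both calls being lost without LPS replicate 1 (1.49, adjusted p 0.0611, and 1.22, adjusted p 0.208). The first was lost too without replicate 2 of 3',3'-cGAMP (1.21), and the second without either HMW library (1.67 and 1.61). PAM and LPS were not separated (0.69, adjusted p 0.172). SeV added to PAM lowered the peak against PAM alone, by -1.2 (SE 0.33, adjusted p 0.00402), while PS was still above SeV alone by 1.65 (adjusted p 0.00731). PScG was above ScG by 2.94 (adjusted p 7.64e-07), 2 groups that also differ in mitochondrial share. The first call was lost without PS replicate 2 (-1.05, adjusted p 0.096), and the second without either SeV library (1.64 and 1.67) or PS replicate 1 (1.51).
The Il1b start peak, chr2:129370836-129371642, with TATAAA in its printed window and also covering the start of Il1bos, moved less. It read 2.51 and 3.18 CPM in the control libraries, 5.49 and 8.02 with PAM, 5.44 and 4.37 with LPS, 3.14 and 2.4 with SeV, and 10.6 and 8.47 in PScG. It rose in 6 of 17 stimulations (2 without control replicate 1, and 11 when libraries were scaled by total counts), by 1.24 (SE 0.299, adjusted p 0.000727) with PAM and 1.73 (adjusted p 2.78e-07) in PScG. The PAM call was lost without PAM replicate 2 (0.94, adjusted p 0.0652). PScG was above PS there by 1.07 (adjusted p 0.0148), a call lost without either PS library (1.02 and 1.13) or PScG replicate 1 (0.9). The peak of the highest mean level, chr2:129373024-129373825, was called in 2 stimulations, PS (0.42) and PcG (0.41), and in 10 under total-count scaling. The call in PS was lost without control replicate 1 (0.29) or PS replicate 2 (0.27), and that in PcG without control replicate 1 (0.28) or PcG replicate 2 (0.26). A peak past the 3′ end, chr2:129360115-129360994, named after its values were seen, was lower in 9 of 17 stimulations. It read 7.87 and 6.56 CPM in the control libraries, 4.35 and 6.72 with PAM and 2.16 and 2.64 with SeV. Its PH, PS, PcG, ZS and PScG calls were lost without control replicate 1 (-0.69 to -0.84).

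**Figure D4:**
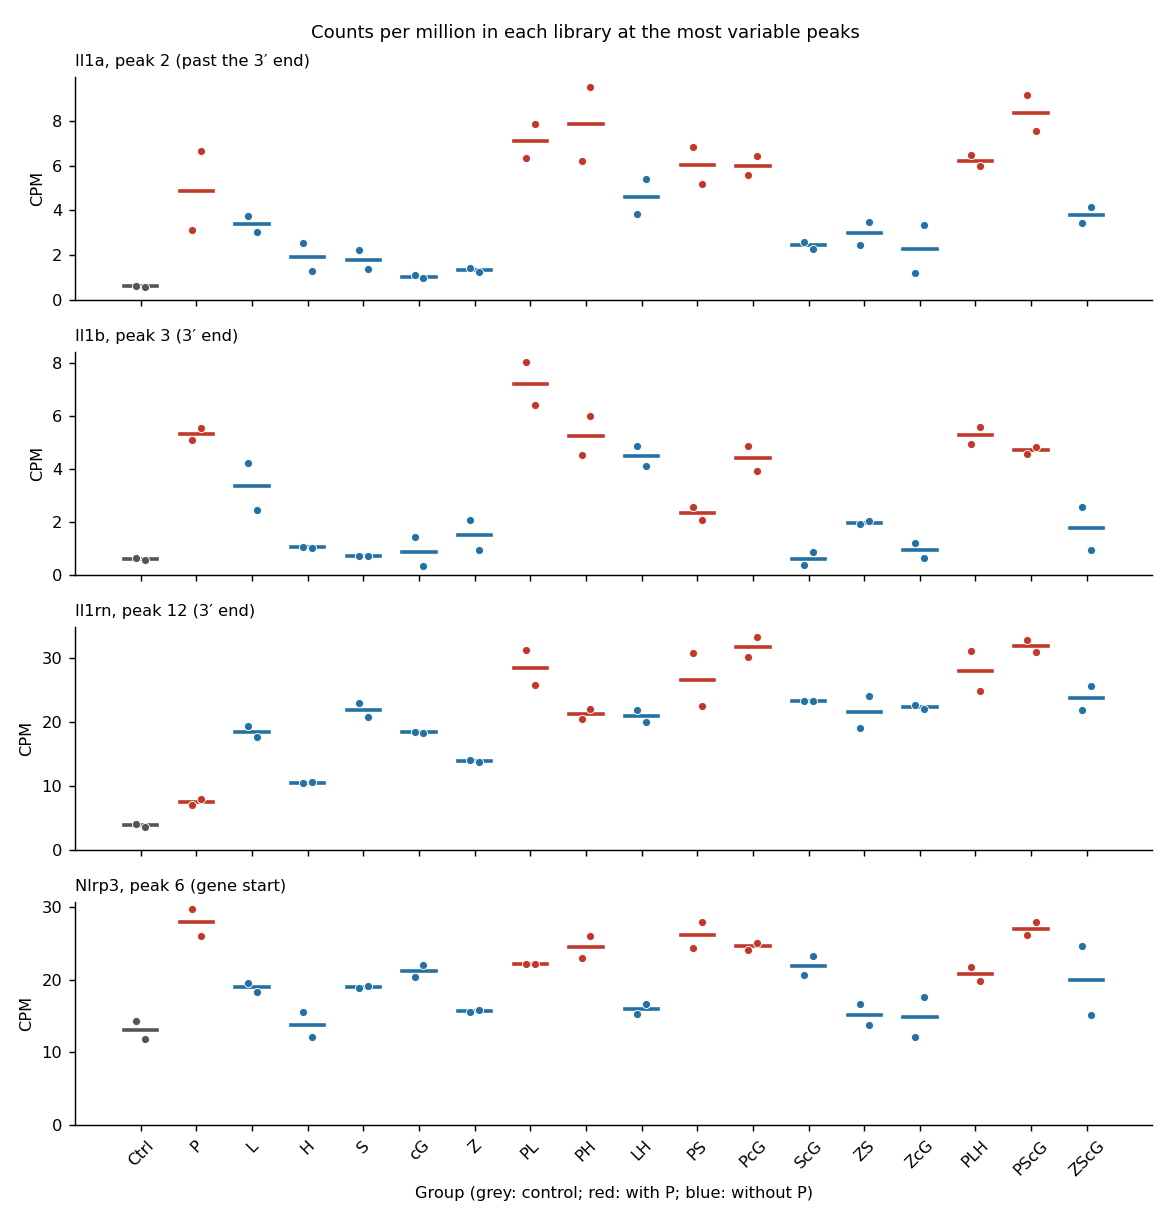
CPM in each library (points) and group mean (bars, from 0) at the peaks of Il1a, Il1b, Il1rn and Nlrp3 with the lowest p among groups; control in grey, groups with PAM in red, groups without it in blue. The Il1b peak is high with PAM or LPS, and at the Il1rn peak PAM alone (7.1 and 7.94 CPM) is the lowest stimulated group.

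Il18, whose product is processed by caspase-1 like IL-1β, had few calls. Its start peak, chr9:50554457-50555361, also covers the start of Bco2 and read 16.2 and 14.4 CPM in the control libraries. The libraries read 23.2 and 19.4 with PAM, 19.8 and 17.7 with LPS, 14.0 and 12.8 with HMW, 13.8 and 13.3 with SeV, 15.2 and 14.6 with 3',3'-cGAMP, and 13.4 and 14.7 with depleted zymosan. Over the 14 libraries with PAM, the lowest, median and highest were 19.1, 20.8 and 23.5, and over the 20 without it 10.4, 13.8 and 22.1. The groups without PAM include those of high mitochondrial share, Z (mean 14.0), ScG (13.6), ZcG (13.3) and ZScG (10.7). SeV (13.5), HMW (13.4) and ZS (11.7), of lower share, were also low. PAM alone (0.48, SE 0.155, adjusted p 0.016), PL (0.55), PH (0.5), PS (0.49) and PScG (0.45) were called higher, and ZScG lower (-0.51, adjusted p 0.0181). Under total-count scaling 9 stimulations were higher and 0 lower at this peak, and 5 of the 17 changes were below 0. All 5 higher calls were lost without control replicate 2 (PAM 0.39, adjusted p 0.167), and the ZScG call without control replicate 1 (-0.43). The PAM call was also lost without PAM replicate 1 (0.34), the PH call without PH replicate 2 (0.35), the PScG call without PScG replicate 2 (0.43), and the ZScG call without either of its own libraries (-0.47 and -0.55).
The comparisons that leave out the control showed PAM above SeV by 0.65 (SE 0.149, adjusted p 0.000271), PAM above HMW by 0.67 (adjusted p 0.000584) and PS above SeV by 0.66 (adjusted p 0.00121). The last call was lost without SeV replicate 2 (0.63, adjusted p 0.0517). A peak 8.1 kb upstream, chr9:50546199-50547020, was higher in 11 stimulations (7 without control replicate 1), by up to 2.67 in PS, and was named after its values were seen. A downstream peak, chr9:50590730-50591587, which has the highest mean level of the Il18 window, was lower in ZS (-0.62), PScG (-0.4) and ZScG (-0.66). Under total-count scaling it was lower in 2 groups and higher in 1, and the PScG call was lost there (-0.04) and without control replicate 2 (-0.36) or PScG replicate 1 (-0.26).

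Il1rn, the antagonist gene, had peaks called higher with each of the 6 single ligands. At its 3′ end PAM gave the smallest rise of these, and at an upstream peak the highest mean. Its peak with the lowest p among groups is 3393 bp wide at the 3′ end of the gene, chr2:24350286-24353678. The control libraries read 4.15 and 3.67 CPM, PAM 7.1 and 7.94, HMW 10.4 and 10.7, depleted zymosan 14.0 and 13.8, 3',3'-cGAMP 18.5 and 18.2, LPS 19.3 and 17.7, and SeV 23.0 and 20.8. The replicates were close and all 34 stimulated libraries were above the control. The pairs read 31.2 and 25.7 in PL, 20.4 and 22.0 in PH, 21.8 and 20.0 in LH, 30.7 and 22.4 in PS, 30.1 and 33.3 in PcG, 23.3 and 23.3 in ScG, 19.1 and 24.1 in ZS, and 22.7 and 22.0 in ZcG. The triplets read 31.0 and 24.8 in PLH, 32.8 and 30.9 in PScG, and 21.9 and 25.6 in ZScG.
PAM alone was thus the lowest stimulated group, while PScG (31.8 CPM) and PcG (31.7) had the highest means. In that order, the lower end was free of overlap at each step: LPS (18.5) and 3',3'-cGAMP (18.3) overlapped each other and stood above depleted zymosan (13.9), HMW (10.5), PAM (7.52) and the control (3.91). The rise was 0.95 (SE 0.21, adjusted p 0.000189) with PAM, 2.24 (SE 0.185, adjusted p 1.3e-22) with LPS, 1.43 (adjusted p 9.84e-09) with HMW, 2.49 (SE 0.183, adjusted p 3.75e-27) with SeV, 2.23 (adjusted p 5.92e-22) with 3',3'-cGAMP and 1.84 (adjusted p 2.08e-13) with depleted zymosan.

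Directly, PAM was below SeV at this Il1rn peak by -1.54 (SE 0.154, adjusted p 5.97e-17), below LPS by -1.29 (adjusted p 8.91e-12) and below 3',3'-cGAMP by -1.28 (adjusted p 5.11e-12). It was below HMW by -0.48 (adjusted p 0.0407), a call lost without any 1 of the 4 libraries compared (-0.4 to -0.57). Yet the pairs were above PAM alone by 1.92 (adjusted p 5.49e-23) in PL, 1.8 in PS and 2.07 in PcG, and also above the partner by 0.63 (adjusted p 0.00264) in PL against LPS and 0.79 (adjusted p 2.46e-06) in PcG against 3',3'-cGAMP. The PL call against LPS was lost without LPS replicate 2 (0.57, adjusted p 0.148) or PL replicate 1 (0.47, adjusted p 0.234).
The first Il1rn start peak, chr2:24336539-24337082, separated PAM from SeV as well. It read 0.546 and 1.06 CPM in the control libraries, 1.37 and 1.23 with PAM, 2.03 and 0.948 with HMW, 3.46 and 2.16 with LPS, 2.55 and 2.79 with 3',3'-cGAMP, 4.25 and 4.18 with SeV, and 2.62 and 4.51 with depleted zymosan. SeV raised it by 2.35 (SE 0.42, adjusted p 1.61e-06) and depleted zymosan by 2.14 (adjusted p 0.000354), the second call being lost without its replicate 2 (1.67, adjusted p 0.0743). PAM (0.66, adjusted p 0.375) and HMW (0.91) did not pass, and PAM was below SeV by -1.69 (adjusted p 8.69e-05). The LPS (1.38), 3',3'-cGAMP (1.33), PL (1.38), PH (0.97), LH (1.05) and PcG (0.9) calls were lost without control replicate 1, the value given being that without it. The PH call was also lost without PH replicate 2 (1.26), the LH call without LH replicate 1 (1.21), and the PcG call without either of its libraries (1.27 each).
The upstream Il1rn peak, 3.7 kb before the start at chr2:24332831-24333417, rose in all 17 stimulations and was named after its values were seen. It read 1.86 and 0.772 CPM in the control libraries, 5.04 and 5.78 with PAM, 4.12 and 5.35 with SeV, 3.82 and 5.02 with 3',3'-cGAMP, 4.1 and 3.56 with LPS, 3.54 and 3.36 with depleted zymosan and 2.48 and 3.62 with HMW. The PAM libraries overlapped those of SeV, and PAM was not separated from SeV (0.19, SE 0.271, adjusted p 0.667). The LPS, HMW, depleted zymosan, ZS and ZcG calls were lost without control replicate 2 (1.03, 0.69, 0.89, 1.1 and 0.78). The HMW call was also lost without HMW replicate 2 (0.94), the depleted zymosan call without either of its libraries (1.38 and 1.45) and the ZcG call without ZcG replicate 1 (1.27).
The 10 peaks in the body of Il1rn varied widely, from 1 to 17 stimulations called higher. Those centred 0.8, 3.8 and 13.1 kb from the first start rose in 1, 7 and 6 stimulations, and in 0 without control replicate 1; without replicate 2 they rose in 0, 7 and 14. The others rose in 14 or more, of which the peak at 12.7 kb had 5 without control replicate 1 and that at 9.7 kb had 7 without replicate 2. The peak at chr2:24341131-24342122, the one with the highest mean level, rose in all 17 stimulations by 0.51 to 1.16, although the PAM, HMW and depleted zymosan calls were lost without control replicate 2 (0.47, 0.4 and 0.58), the HMW call without HMW replicate 2 (0.42) and the ZS call without ZS replicate 2 (0.45). The peak at the internal starts, chr2:24344777-24345674, rose in 16 of 17, from 7.65 and 6.85 CPM in the control to 12.5 and 11.6 with PAM, and depleted zymosan was the group not called. The HMW, ZS and ZScG calls were lost without control replicate 2 (0.63, 0.46 and 0.6), and the ZS call also without control replicate 1 (0.62) or either ZS library (0.56 and 0.51). The HMW call was lost too without HMW replicate 1 (0.57), the ZcG call without ZcG replicate 1 (0.55) and the ZScG call without ZScG replicate 1 (0.46).

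At the start of Nlrp3, the inflammasome sensor gene, PAM gave the highest mean, and at other peaks of the gene it did not. The start peak, chr11:59541048-59542042, also had the lowest p of the Nlrp3 peaks among groups. It read 14.3 and 11.9 CPM in the control libraries, 29.8 and 26.0 with PAM, 19.6 and 18.3 with LPS, 15.5 and 12.1 with HMW, 18.9 and 19.1 with SeV, 20.4 and 22.0 with 3',3'-cGAMP, and 15.6 and 15.9 with depleted zymosan. PAM libraries were above those of all other single ligands. The pairs read 22.1 and 22.1 in PL, 23.0 and 26.0 in PH, 15.3 and 16.7 in LH, 24.3 and 28.0 in PS, 24.1 and 25.1 in PcG, 20.6 and 23.2 in ScG, 16.6 and 13.8 in ZS, and 12.1 and 17.6 in ZcG. The triplets read 21.8 and 19.8 in PLH, 26.1 and 27.9 in PScG, and 24.6 and 15.2 in ZScG.
No combination mean exceeded that of PAM alone (27.9 CPM), whose libraries overlapped those of PScG (27.0), PS (26.1) and, at 26.0 CPM, PH (24.5), and lay above both of PcG (24.6). The start peak rose in 12 of 17 stimulations, by 1.1 (SE 0.152, adjusted p 9.47e-10) with PAM, 0.7 (adjusted p 0.000169) with 3',3'-cGAMP, 0.54 (adjusted p 0.00532) with LPS and 0.54 (adjusted p 0.00385) with SeV. Without control replicate 2 the LPS (0.4, adjusted p 0.143) and SeV (0.41, adjusted p 0.12) calls were lost, as was the LPS call without LPS replicate 1 (0.49), and the ZScG call without ZScG replicate 1 (0.22, adjusted p 0.487) or control replicate 2 (0.49, adjusted p 0.0551). HMW (0.09) and depleted zymosan (0.28) did not pass. PAM was above SeV by 0.56 (SE 0.138, adjusted p 0.000859), above HMW by 1.01 (adjusted p 8.51e-09) and above LPS by 0.56 (adjusted p 0.0019), the last call being lost without PAM replicate 1 (0.46, adjusted p 0.073) or LPS replicate 2 (0.51, adjusted p 0.0543). PH was above HMW by 0.82.
A peak inside the gene, chr11:59543833-59544525, named after its values were seen, was called higher in 6 stimulations, PAM not among them, in 2 without control replicate 1 and in 9 without replicate 2. It read 1.97 and 3.76 CPM in the control libraries, 7.07 and 6.83 with SeV and 8.37 and 6.12 in ScG. A downstream peak, chr11:59571503-59572076, also named after its values were seen, read 0.437 and 0.675 CPM in the control libraries, 1.45 and 0.506 with PAM, 2.29 and 2.95 with SeV and 2.94 and 2.29 with 3',3'-cGAMP. It rose in 13 stimulations (4 and 10 without control replicates 1 and 2), PAM not among them (0.78, adjusted p 0.402). PAM was below SeV there (-1.43, SE 0.455, adjusted p 0.0117), a call lost without PAM replicate 2 (-0.85) or SeV replicate 2 (-1.23), and below 3',3'-cGAMP (-1.42, adjusted p 0.0142), lost without PAM replicate 2 (-0.85) or replicate 1 of 3',3'-cGAMP (-1.23).

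Casp1, the protease of the inflammasome, was less accessible at its start. The start peak, chr9:5298049-5299547, read 37.5 and 34.3 CPM in the control libraries, and all 34 stimulated libraries were below both. It read 21.3 and 17 with PAM, 26.6 and 22.3 with LPS, 21.5 and 25.8 with HMW, 22.1 and 25.6 with SeV, 28.6 and 28.9 with 3',3'-cGAMP, and 28.6 and 32.8 with depleted zymosan. The pairs read 22.9 and 20.0 in PL, 20.1 and 19.1 in PH, 24.3 and 25.6 in LH, 17.8 and 21.1 in PS, 22.5 and 24.0 in PcG, 25.8 and 22.6 in ScG, 19.4 and 22.7 in ZS, and 26.6 and 27.0 in ZcG. The triplets read 18.7 and 16.1 in PLH, 19.0 and 21.2 in PScG, and 20.6 and 19.4 in ZScG, so PLH had the lowest mean, 17.4 CPM.
The peak fell in 15 of 17 stimulations under TMM scaling and in 10 under total-count scaling, where the changes ran from -0.77 to 0.02 and 1 was above 0. The change was -0.91 (SE 0.133, adjusted p 7.09e-09) with PAM, -0.56 with LPS, -0.61 with HMW, -0.59 with SeV and -1.04 (adjusted p 2.45e-11) in PLH. With 3',3'-cGAMP (-0.32, adjusted p 0.0572) and depleted zymosan (-0.22) it did not pass. The HMW call was lost without HMW replicate 1 (-0.48), and the ZcG call without control replicate 1 (-0.36) or either ZcG library (-0.41 and -0.43). PAM was below 3',3'-cGAMP by -0.59 (adjusted p 0.00019), a comparison without control libraries.
A peak in the Casp1 body, chr9:5302929-5303414, was named after its values were seen because it went the other way with LPS. It read 0.546 and 0.772 CPM in the control libraries, 0.458 and 0.65 with PAM, 3.53 and 2.97 with LPS, 1.51 and 2.15 with 3',3'-cGAMP, 2.94 and 5.91 in PL, 3.71 and 4.6 in LH and 3.85 and 4.94 in PLH. LPS raised it by 2.27 (SE 0.492, adjusted p 0.000132), PAM did not (-0.25), and PAM was below LPS by -2.52 (SE 0.474, adjusted p 2.11e-05). It was called in 10 stimulations, and in 5 without control replicate 1. With LPS the Casp1 start was less open and this peak, chosen for that contrast, more open. The chosen peak also lies 5.7 kb before the Casp4 start, and its control libraries held 5 and 8 counts.

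Casp4, which encodes caspase-11, had a start peak (chr9:5307884-5309850) that also lay in the Casp1 window and had the highest mean level there. It was higher with PAM (0.32), PL (0.4), PH (0.28), LH (0.3) and PcG (0.29), and all 5 calls were lost without control replicate 2 (0.21 to 0.33). The PAM call was also lost without PAM replicate 1 (0.27), the PcG call without PcG replicate 1 (0.24), the LH call without either LH library (0.25 and 0.35), and the PH call without control replicate 1 (0.35) or either PH library (0.27 and 0.3). Under total-count scaling it was higher in 11. PAM was above SeV there by 0.51 (SE 0.107, adjusted p 5.85e-05). A peak downstream of the gene, chr9:5344042-5344596, was named after its values were seen, because the Casp4 peak with the lowest p among groups is the Casp1 start peak. It read 10.8 and 7.62 CPM in the control libraries and 2.62 to 7.66 in the stimulated ones, of which 33 of 34 were below both control libraries. It fell in 15 of 17 stimulations, in 5 without control replicate 1, and in 8 under total-count scaling, where none was above 0.

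Gsdmd, which encodes the pore protein, had 3 peaks and no promoter entry in the sequence table, so its strand is not given. A flanking peak at chr15:75856773-75857883 read 23.5 and 21.9 CPM in the control libraries, 21.1 and 21.7 with PAM, 20.4 and 20.8 with LPS, 17.8 and 13.3 with HMW, 17 and 15.4 with SeV, 14.6 and 17.7 with 3',3'-cGAMP, and 13.4 and 16.9 with depleted zymosan. All 34 stimulated libraries were below both control libraries, PAM and LPS by the least. The pairs read 15.4 and 15.2 in PL, 10.9 and 15.1 in PH, 18.2 and 17 in LH, 15.4 and 16.5 in PS, 13.5 and 12.9 in PcG, 13.5 and 12.6 in ScG, 8.17 and 11.5 in ZS, and 12.3 and 12.8 in ZcG. The triplets read 13.4 and 11.4 in PLH, 15.3 and 12.0 in PScG, and 11.1 and 10.5 in ZScG.
The peak fell in 14 of 17 stimulations (9 without control replicate 1), by -1.19 (SE 0.173, adjusted p 4.39e-09) in ZS. PAM (-0.09), LPS (-0.14) and LH (-0.36) did not pass. Under total-count scaling 7 fell and the changes ran from -1.0 to 0.29, with 2 above 0. The HMW, SeV, 3',3'-cGAMP and depleted zymosan calls were lost without control replicate 1 (-0.48, -0.44, -0.43 and -0.52). They were also lost without HMW replicate 2 (-0.35), SeV replicate 2 (-0.41), 3',3'-cGAMP replicate 1 (-0.36), and control replicate 2 (-0.62) or depleted zymosan replicate 1 (-0.42). The peak at a gene end, chr15:75862019-75862617, was called once, with 3',3'-cGAMP (0.86, SE 0.228, adjusted p 0.00204), a call lost without control replicate 2 (0.68) or 3',3'-cGAMP replicate 1 (0.67). Under total-count scaling 4 stimulations were higher at this peak.

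**Figure D5:**
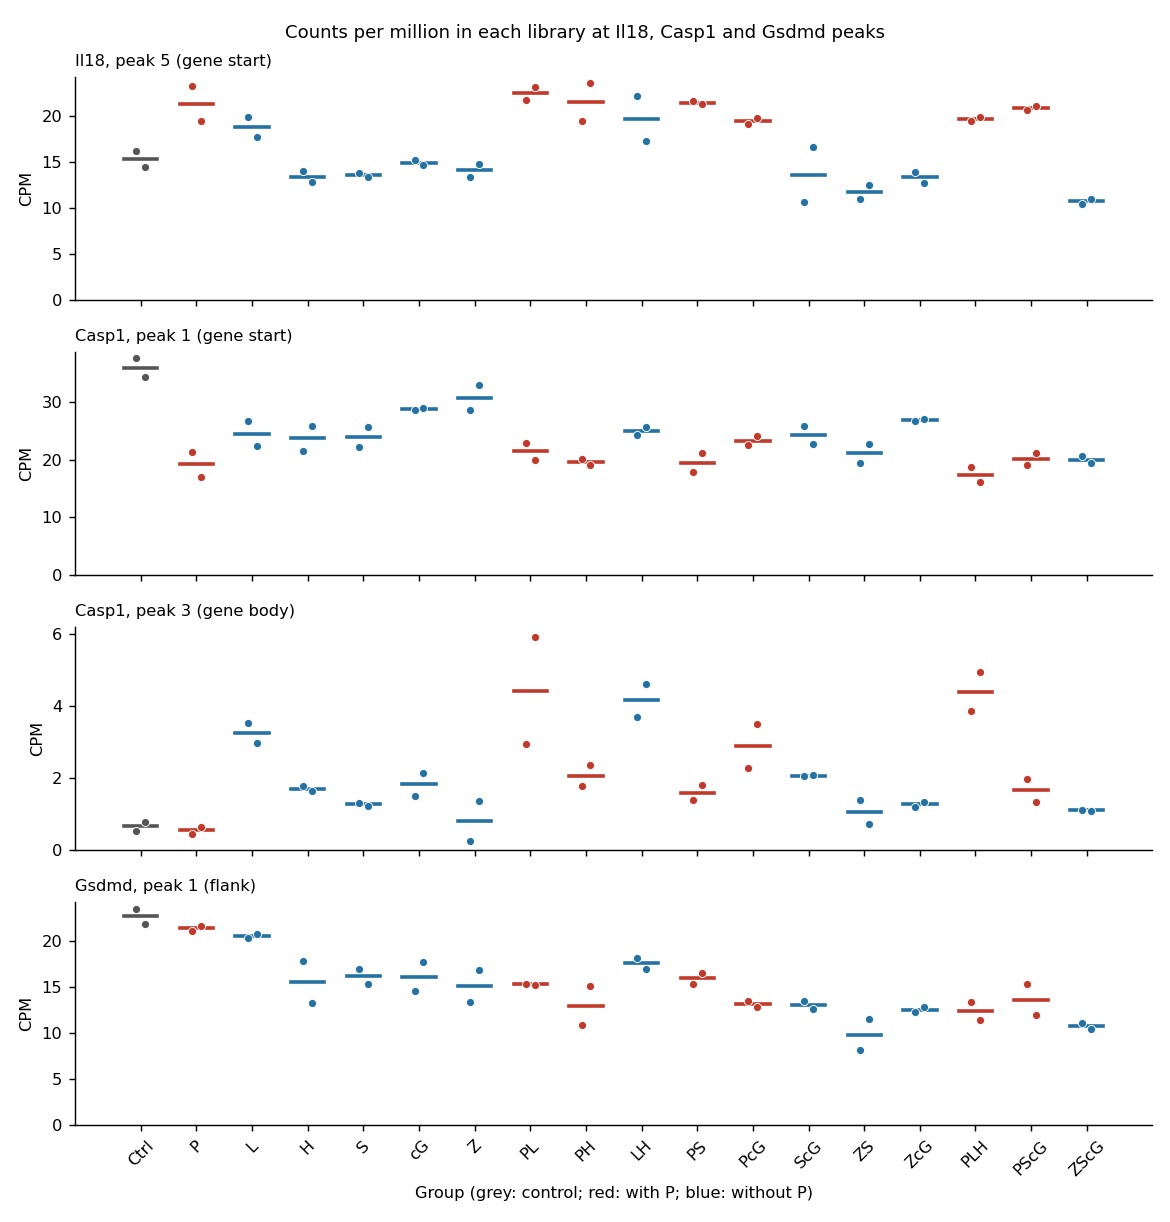
CPM in each library (points) and group mean (bars, from 0) at the Il18 start, the Casp1 start, the Casp1 body peak and the Gsdmd flanking peak; control in grey, groups with PAM in red, groups without it in blue. At the Casp1 start and the Gsdmd flank all 34 stimulated libraries lie below both control libraries, and the Casp1 body peak is highest in the groups with LPS.

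The third question was whether ligands combined as the sum of their log2 changes. The interaction is the change of the pair minus the changes of both single ligands, so a negative value means less than that sum. It uses the control libraries, so the limit given for the mitochondrial share applies. In ScG the term sets the control (61.0%) and ScG (59.4%) against SeV (47.9%) and 3',3'-cGAMP (46.1%). There the way the ligands combine cannot be told apart from whatever set that share. In PL, 11 of 74 member peaks had a negative interaction (4.18% of all tested peaks), in PH 3 (1.08%), in LH 7 (2.62%), in PS 8 (2.9%), in PcG 4 (2.17%), in ScG 11 (7.52%), in ZS 9 (2.6%) and in ZcG 9 (1.74%). Positive ones numbered 1 in each of the first 6 pairs and 0 in ZS and ZcG. Il1a and Il1rn peaks made up most of the negative calls. The negative counts fell by over 1.5 times without some libraries: without control replicate 1 to 7 in PL and 4 in LH, and without control replicate 2 to 6 in PL, 4 in PS, 2 in PcG, 5 in ZS and 5 in ZcG. Without a library of a single ligand they fell to 6 in PL (PAM replicate 2 or LPS replicate 1), 3 and 4 in LH (HMW replicates 1 and 2), 4 and 5 in PS (PAM replicates 1 and 2), 5 and 3 in PS (SeV replicates 1 and 2), 4 in ZcG (3',3'-cGAMP replicate 2) and 5 in ZcG (depleted zymosan replicate 1). Without replicate 2 of the pair they fell to 4 in LH, 5 in PS and 5 in ZcG. Each positive call was lost without at least 1 library. In ScG, for example, 7 Il1rn peaks had negative interactions, 4 without control replicate 2, among them the 3′ peak (-2.14, adjusted p 1.11e-13), where SeV and 3',3'-cGAMP each gave over 18 CPM and both together 23.3.
Set against single ligands instead, adding PAM raised 15 member peaks over HMW (5.28% of all peaks), 15 over 3',3'-cGAMP (5.59%), 10 over SeV (2.44%), 6 over LPS (0.765%) and 14 over ScG (2.11%). The Il1a and Il1b 3′ peaks were in each of these sets. PScG and ScG also differed in mitochondrial share (45.1% and 59.4%), which cannot be told apart from PAM in that comparison. Without 1 library these counts fell as low as 8 over HMW (HMW replicate 2; 9 without replicate 1), 2 over SeV (SeV replicate 2; 5 without SeV replicate 1 or either PS library), 0 over LPS (LPS replicate 2 or PL replicate 1; 1 without PL replicate 2) and 5 over ScG (PScG replicate 2; 6 and 7 without ScG replicates 1 and 2). Over 3',3'-cGAMP the count stayed between 10 and 13. Added to LH, PAM raised 1 member peak and lowered 1, and the share of all peaks is not given here. Adding HMW to LPS moved 0 of the 74 by edgeR's quasi-likelihood test (0.0645% of all peaks called; 2 higher and 2 lower at an unadjusted p under 0.05, 0 by DESeq2). Adding 3',3'-cGAMP to SeV also moved 0 (0.579% of all peaks; 2 higher and 3 lower unadjusted, 0 by DESeq2). The triplet term, the part of the triplet's change left after all single and pair terms, was positive for 3 member peaks in PLH (0.511% of all peaks), 4 in PScG (1.03%) and 5 in ZScG (0.974%), all of them Il1a or Il1rn peaks. The PLH count was 1 without control replicate 1. The PScG count was 2 without replicate 2 of the control, PAM, 3',3'-cGAMP, PcG or PScG, or replicate 1 of PS or ScG. The ZScG count was 3 without SeV replicate 2, depleted zymosan replicate 1, ZS replicate 2 or ZScG replicate 1.

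The wider IL-1 and inflammasome pathway was read from a list of 36 other genes, of which 34 had peaks, 325 in all. With PAM, 58 of these were higher and 21 lower (17.8% and 6.46%, against 11.1% and 9.45% of all tested peaks). SeV gave 56 and 42 (17.2% and 12.9%, against 14.1% and 13.8%) and LPS 52 and 21 (16% and 6.46%, against 11.2% and 11.1%). With 3',3'-cGAMP there were 46 and 28 (14.2% and 8.62%, against 11.6% for each direction), with HMW 20 and 13 (6.15% and 4.0%, against 5.21% and 5.46%), and with depleted zymosan 22 and 5 (6.77% and 1.54%, against 4.16% and 1.75%). The shares for SeV, 3',3'-cGAMP and HMW were thus near those of all peaks. Without control replicate 1 the lower counts were 12 with PAM, 25 with SeV, 2 with HMW and 1 with depleted zymosan, and the higher counts 28 with 3',3'-cGAMP, 8 with HMW and 14 with depleted zymosan. Without control replicate 2 the lower counts were 12 with PAM, 8 with HMW and 2 with depleted zymosan, and the higher count 12 with depleted zymosan. Leaving out a ligand's own replicate 1 gave 11 lower with PAM, 18 with SeV, 13 with LPS, 17 with 3',3'-cGAMP, 7 with HMW and 1 with depleted zymosan, and 12 higher with HMW and with depleted zymosan. Without its own replicate 2, 3',3'-cGAMP had 27 higher and 17 lower, HMW 9 and 2, and depleted zymosan 14 and 0.
By role, the other IL-1 family cytokine genes had 3 of 17 peaks higher and 1 lower with PAM, and 5 and 2 with SeV. Receptors and soluble inhibitors had 9 of 73 higher and 3 lower with PAM, and 9 and 8 with SeV. Receptor signalling genes had 22 of 84 higher (26.2%) and 5 lower with PAM, and 16 (19.0%) and 17 (20.2%) with SeV. Inflammasome sensors and adaptors had 22 of 107 higher (20.6%) and 5 lower with PAM, and 17 (15.9%) and 8 with SeV. Proteases and pores had 2 of 44 higher and 7 lower with PAM, and 9 and 7 with SeV. These are to be read against the shares of all peaks given above, and many rest on 1 library. For PAM, the higher count of receptor signalling genes was 11 without control replicate 1 and that of proteases and pores 1 without control replicate 2. For SeV, the higher counts were 3 for cytokines and 10 for sensors without SeV replicate 1, 5 for receptors without control replicate 1 or SeV replicate 2, and 10 for receptor signalling without SeV replicate 2. The lower counts with PAM fell as low as 0 for cytokines (control replicate 2 or PAM replicate 1), 1 for receptors (control replicate 1 or PAM replicate 2), 2 for receptor signalling (control replicate 1; 3 without any 1 of the other 3 libraries), 0 for sensors (control replicate 2; 2 or 3 without any 1 of the others) and 4 for proteases (PAM replicate 1). Those with SeV fell as low as 0 for cytokines (SeV replicate 1), 2 for receptors (control replicate 1; 3 and 5 without SeV replicates 1 and 2), 9 for receptor signalling (SeV replicate 1; 11 without replicate 2, 10 without control replicate 2), 3 for sensors (SeV replicate 1; 5 without control replicate 1) and 3 for proteases (either SeV library; 4 without control replicate 1).
One peak per list is named, that with the lowest p among groups. At Il36a, an IL-1 family cytokine gene (chr2:24214424-24215466), the control libraries read 5.9 and 6.37 CPM, PAM 14.8 and 14.7, depleted zymosan 15.2 and 13.1, SeV 2.16 and 3.51, and 3',3'-cGAMP 1.67 and 3.01. It rose with PAM (1.26, adjusted p 7.35e-06) and depleted zymosan (1.2, adjusted p 0.000196) and fell with SeV (-1.11, adjusted p 0.000615) and 3',3'-cGAMP (-1.37, adjusted p 6e-05). In Il1rap, which encodes the accessory chain of the IL-1 receptor, a peak at chr16:26619131-26619716 rose from 2.08 and 1.45 CPM to 11.1 and 14.7 with PAM (2.88, SE 0.315, adjusted p 1.57e-14). It also rose with LPS (1.83), HMW (1.43) and depleted zymosan (1.92). In Nek7, whose product binds NLRP3, a peak at chr1:138559389-138560331 rose most with LPS, from 11.0 and 6.85 to 25.3 and 23.1 CPM (1.45, adjusted p 7.29e-14). In Ninj1, which acts in membrane rupture after pore formation, a peak at chr13:49189216-49192234 fell with PAM (-0.54, adjusted p 0.00341) and rose with SeV (0.72), 3',3'-cGAMP (0.84, adjusted p 2.9e-07) and depleted zymosan (0.5). In Irak2, a receptor-proximal kinase gene, a peak at chr6:113659477-113660049 rose with PAM (1.09, adjusted p 0.00361) and fell with SeV (-1.31, adjusted p 0.00219). Some of these calls were lost without 1 library. At Il36a this was SeV without SeV replicate 1 (-0.81, adjusted p 0.0613), and at Il1rap HMW without control replicate 2 (1.18, adjusted p 0.0738) or HMW replicate 2 (1.0). At Ninj1 the PAM call was lost without control replicate 2 (-0.4) or PAM replicate 1 (-0.38), and the depleted zymosan call without control replicate 1 (0.37) or its replicate 1 (0.29). At Irak2 the PAM call was lost without control replicate 1 (0.86, adjusted p 0.105), and the SeV call without control replicate 2 (-1.02, adjusted p 0.0918) or SeV replicate 1 (-1.01).

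Among 10437 peaks at the ends of other protein-coding genes, those whose group means followed the Il1b 3′ peak best over the 18 groups lay at Lcn2 (Pearson r 0.943), Saa3 with Saal1 (0.91) and Saa3 (0.907). For the Il1rn 3′ peak they lay at Grap (0.939), Isg15 (0.918) and Capn5 (0.917). For the Il1a 3′ peak they lay at Vmn1r233 (0.97), Ncoa7 (0.949) and Eaf2 (0.946), and for the Nlrp3 start at Tnfaip2 (0.865), Phf7 (0.864) and Il23a (0.859). The points share libraries and scaling, so these are descriptions only. Lcn2 and Saa3 encode acute-phase proteins, Isg15 is a classical interferon-induced gene, and Il23a encodes a subunit of interleukin-23.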

How the data were processed

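The authors' deposited table holds raw counts of ATAC-seq reads per peak, 1 column per library, over 119751 peaks. Per the submitters' processing notes, Bowtie2 2.2.9, MACS2 (given there as version 1.4), bedtools, featureCounts and the build mm10 were used; how peaks were pooled over libraries is not given in the sources used here. The mitochondrial peak (chrM:1-16299) and 286 peaks with low counts (filterByExpr by group, minimum count 10) were left out, which left 119464. edgeR 4.0.16 (limma 3.58.1, R 4.3.3) fitted 1 quasi-likelihood model over 36 libraries with TMM factors (common dispersion 0.02, 18 residual degrees of freedom) and 63 contrasts, each adjusted by Benjamini-Hochberg over all tested peaks. The script was tested on simulated data. CPM values and SEs were computed from that fit, the SE as the size of the log2 change divided by the square root of F.

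Gene bodies come from RefSeq GRCm38.p6. For each gene, the text describes the peak at the annotated start, that with the highest mean CPM and that with the lowest p among the 18 groups. Members and lists were chosen with earlier results of these data known. The 10 contrasts between single ligands, the rule of 1 peak per pathway list, the TATAAA search and the other peaks said to be so were added after the values were seen. Replicate numbers did not pair libraries: same-numbered libraries of 153 pairs of groups had correlations of -0.036 to 0.026 in their deviations, with 0 over 0.1. Replicates differed by more than sampling noise (chi-square per degree of freedom 2.08 to 3.31).

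Alternatives were other scalings, filters, a thinned depth, DESeq2 1.42.0, fits on only the groups compared, a replicate block, other windows, and leaving out each library, which reused the dispersion trend of all libraries. A group left with 1 library is then assumed to vary like the others.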

Additional observations from a re-analysis of the deposited data

Results flagged for a closer look

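Several pairs and triplets gave changes, at the peak of a gene with the lowest p among groups, that differed from the sum of their parts by edgeR's quasi-likelihood test of the interaction itself (adjusted p over all tested peaks). All of them use the control libraries, so the limit given for the mitochondrial share applies. In the ScG term the control and ScG had the high share and both single ligands the low one. In PL the interaction was -1.91 (adjusted p 0.0161) at the Il1a 3′ peak and -1.97 (adjusted p 0.0184) at the Il1b 3′ peak. Without control replicate 1 these were -2.0 (adjusted p 0.0676) and -2.05 (adjusted p 0.0722), and without replicate 2 -1.82 (adjusted p 0.0972) and -1.88 (adjusted p 0.1). They were also lost without other libraries: the Il1a value without PAM replicate 2 (-1.26), LPS replicate 1 (-1.76) or PL replicate 1 (-1.76), and the Il1b value without PAM replicate 2 (-1.91), LPS replicate 1 (-1.55) or PL replicate 2 (-1.82).

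At the Il1rn 3′ peak the interaction was -1.25 (adjusted p 0.000203) in LH, -2.14 (adjusted p 1.11e-13) in ScG, -1.85 (adjusted p 3.07e-09) in ZS and -1.55 (adjusted p 4.14e-06) in ZcG. The ZScG triplet term was 1.59 (adjusted p 0.000995). No pair interaction with PAM was called at this peak. All 5 values passed without any 1 of their libraries.

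At the Nlrp3 start peak the interaction was -0.87 (adjusted p 0.00214) in PL, -0.63 (adjusted p 0.0499) in PS, -0.88 (adjusted p 0.00287) in PcG and -0.79 (adjusted p 0.0349) in ZcG. Without control replicate 2, PS was -0.5 (adjusted p 0.259), PcG -0.75 (adjusted p 0.0604) and ZcG -0.65 (adjusted p 0.174). PS was also lost without PAM replicate 1 (-0.53), either SeV library (-0.64 and -0.62) or PS replicate 1 (-0.54), and ZcG without 3',3'-cGAMP replicate 2 (-0.73), either depleted zymosan library (-0.8 and -0.77) or ZcG replicate 1 (-0.55).

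The Casp1 start, which was lower in most stimulations, had positive pair terms: 0.73 (adjusted p 0.00504) in PL, 0.64 (adjusted p 0.0477) in PH, 0.64 (adjusted p 0.02) in LH, 0.62 (adjusted p 0.0281) in PS and 0.6 (adjusted p 0.0425) in PcG. The PLH triplet term was -0.98 (adjusted p 0.0422). With total-count scaling none of these 5 pair values passed, at 0.24 to 0.37. Without PAM replicate 2, PL was 0.57, PH 0.49, PS 0.46 and PcG 0.45, none of them passing, and LH was 0.51 without LPS replicate 2 or HMW replicate 1. Each of these 5 was also lost without 2 or more other libraries (0.48 to 0.7), and the triplet term without 10 of its 16 libraries (-1.02 to -0.82). At the Il18 and Gsdmd peaks with the lowest p among groups no interaction was called.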

How the results depend on the processing

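The share of tests on member peaks that were called was 41.5% against the control, and 28.9% to 41.7% when 1 library was left out. For pairs against single ligands it was 10.7% (8.95% to 10.6% without 1 library), with 5.49% under abundance-dependent offsets, 5.83% after thinning all libraries to one depth and 6.33% when a log2 change of at least 1 was also required. For pair interactions it was 11.5% (7.6% to 11.5%), with 22.8% under total-count scaling, 2.2% under offsets and 6.93% after thinning. For triplets against pairs it was 3.15% (1.65% to 3.15%), with 5.41% under total counts, 4.95% under offsets, 1.2% after thinning, 5.08% by DESeq2 and 1.8% with the added fold limit. For triplet interactions it was 5.86% (4.05% to 6.31%), with 15.3% under total counts, 0.45% under offsets, 2.7% after thinning and 11.1% by DESeq2. For single against single ligands it was 20.3% (13.4% to 18.4%), with 10.4% under offsets, 11.1% after thinning and 12.2% with the fold limit. With the replicate number as a block these shares were 41.5%, 10.6%, 11.3%, 3.15%, 5.86% and 20.1%, and the block ended 1 call, the Nlrp3 PS interaction (adjusted p 0.0508). The libraries that share a number are otherwise unrelated. Under total-count scaling the median change of all peaks against the control was up to 0.452 (log2, with LPS). Under abundance-dependent offsets it ran from -0.626 in PS to 0.344 in ZScG. In PS the offsets gave 7245 peaks higher and 39428 lower, against 20622 and 19332 under TMM scaling.

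For the described peaks, 247 called values were recomputed 3319 times: 2833 kept their direction and call, 484 lost the call, 113 of them under abundance-dependent offsets, 56 from thinning, 42 and 34 from leaving out control replicates 1 and 2, and 23 from total counts. Under offsets 2 were reversed, the Il1b highest peak in PS (-0.21) and the Il18 start in PS (-0.09), and the cause was not tested. With 2 libraries a group, a fit without 1 library rests on a lone sample in that group, and peaks under about 1 CPM, such as the control values of the Il1a and Il1b 3′ peaks, rest on few counts.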
